A study of Mus musculus with 6 samples.

Results

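The genes described here encode the protein disulfide isomerases and the oxidases that supply them in the endoplasmic reticulum (ER): P4hb, Pdia3, Pdia4, Pdia5, Pdia6, Erp29, Erp44 and Txndc5, together with Ero1l and Ero1lb. They were chosen by name from what their products do, but with earlier results of these data known. All 10 were found among the 22298 genes of the expression table. RNA sequencing was carried out on 6 samples of MIN6, a mouse insulinoma line that keeps many features of the pancreatic β-cell. The labels put 3 samples in a control group and 3 in a chronic epinephrine group, and they name no genotype, strain or further treatment, so the groups share the MIN6 background and differ, as labelled, by epinephrine. The study's scheme exposed cells to 100 nM epinephrine for 3 days and then kept them for 2 days without it, but the day on which RNA was collected is not named in the sources used here. MIN6 is a single transformed line. The study's methods describe its data in general as coming from biological replicates and n as independent samples, but do not say how the RNA samples were separated (by dish, passage or day), so the p-values below measure the spread between these samples of 1 line.

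Proinsulin, like most secreted proteins, must form disulfide bonds in the ER before it can leave. Protein disulfide isomerases carry thioredoxin-like domains that make, break and rearrange these bonds, and the Ero1 oxidases re-oxidise the isomerases with molecular oxygen, which yields hydrogen peroxide. Ero1l (also called Ero1a) is found in most tissues and is known as a hypoxia-responsive gene, whereas Ero1lb (also called Ero1b) is best known from the pancreas, where β-cells hold large amounts of it. Many of these genes are classical targets of the unfolded protein response, whose factors ATF6 and XBP1 act through promoter elements called ERSE (ER stress response element) and UPRE (unfolded protein response element).

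The promoters are shown first because an ERSE is present at both a gene that rose strongly and a gene that did not pass the test. Windows from 250 bases before to 50 after the annotated start, taken from RefSeq (GRCm38.p6), were found for 9 of the 10 genes, with 2 windows for Erp44, 3 for Txndc5 and none for Erp29. The ERSE (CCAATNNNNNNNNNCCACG, both strands) was matched in 39 of all 32851 RefSeq windows (of 27025 genes), or 0.119%. Among these genes it was matched in Pdia6, at positions -98 to -80 relative to the start on the gene's own strand, and in Ero1lb, at positions -201 to -183 on the opposite strand. Read in the same direction, from CCAAT to CCACG, the 9 bases between the fixed ends were not identical. The aligned elements, with the fixed ends in capitals, are
Pdia6: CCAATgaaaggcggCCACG
Ero1lb: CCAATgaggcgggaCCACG

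The sequence around each element is given 5′ to 3′ on the strand of the gene, from 250 bases before the RefSeq start up to the first annotated exon base, with the ERSE in capitals. The Pdia6 stretch is chr12:17266339-17266544 and the Ero1lb stretch is chr13:12565633-12565873, both on the plus strand of GRCm38.p6, and in Ero1lb the element reads from CGTGG to ATTGG because it lies on the other strand.
Pdia6: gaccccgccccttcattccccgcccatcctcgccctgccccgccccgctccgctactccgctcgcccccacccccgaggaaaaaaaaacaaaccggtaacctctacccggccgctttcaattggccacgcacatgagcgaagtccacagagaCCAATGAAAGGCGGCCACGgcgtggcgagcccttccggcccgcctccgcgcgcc
Ero1lb: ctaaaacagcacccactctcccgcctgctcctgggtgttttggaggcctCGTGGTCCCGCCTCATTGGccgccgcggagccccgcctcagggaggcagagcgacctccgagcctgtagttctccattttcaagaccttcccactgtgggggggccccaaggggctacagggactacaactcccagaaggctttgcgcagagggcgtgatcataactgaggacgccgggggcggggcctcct

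The UPRE (TGACGTGG, both strands) was matched in 222 of the 32851 windows, or 0.676%. Among these genes it occurred in 1 of the 3 Txndc5 windows, at positions -138 to -131 relative to the start at base 38527914 of chromosome 13. That start lies inside the longest annotated Txndc5 model, and the stretch overlaps an exon of Gm31834 on the other strand. The 30 bases around the match (chr13:38528034-38528063, minus strand, element in capitals) are
Txndc5: ggcctcgccgcTGACGTGGcgctagccgcc

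Neither the related ERSE-II (ATTGG, any base, then CCACG, in 12 windows or 0.0365%) nor the amino acid response motif of ATF4 targets, CARE (TTGCATCA, in 294 windows or 0.895%), was matched in any of the 9 genes' windows. These matches are descriptions of letters and say nothing about binding. Only exact matches inside these windows were sought, so variant or more distant elements were not covered.

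The libraries summed to between 15017065 and 18127171 expected counts, and 12747 genes held enough counts to be tested. All 10 genes of interest were among them, with 730 to 65462 counts per sample. Control 1 stood apart from the other controls: across genes its log2 CPM (normalised counts scaled to library size) correlated with theirs at r = 0.978 to 0.979, against 0.993 between controls 2 and 3, and at least 0.992 among the epinephrine samples. Liver-type transcripts differed between controls as well, with Alb at 0.194 CPM in control 1 but 33.9 and 82.3 CPM in controls 2 and 3, and at 0.297 to 0.448 CPM after epinephrine. The 8 hepatocyte markers together summed to 36.3 to 174 CPM in controls and 24.7 to 28.5 CPM after epinephrine. Hnf4a alone gave 27.3 to 34.8 CPM in controls and 22.0 to 25.6 CPM after epinephrine, and the other 7 markers summed to 1.55 CPM in control 1, 59.0 and 146.9 CPM in controls 2 and 3, and 2.55 to 2.91 CPM after epinephrine. Of the 8 markers, 3 were tested with edgeR in the fit of all samples and none passed (2 had an unadjusted p below 0.05), whereas 6 fell without control 1, which leaves the controls richest in Alb, and 3 fell under DESeq2, beside 9.46% and 2.04% of all genes. Their part in the results was not tested. All 8 β-cell markers were present, summing to 7294 to 8129 CPM in controls and 6578 to 6727 CPM after epinephrine, and 2 of them, the glucose transporter gene Slc2a2 and the granule peptide gene Ucn3, fell (log2 fold change -0.76, FDR 0.00434, and -0.74, FDR 0.00868). All 8 β-cell markers had lower means after epinephrine (median log2 fold change -0.37), and 5 had an unadjusted p below 0.05. Over all genes tested 0.612% fell. Without control 1, 6 of the 8 fell, beside 9.46% of all genes. Slc2a2 and Ucn3 each kept the call in 3 of the 6 fits that left out a sample, and the part of this list in the results was not tested. Of the exocrine markers, 5 of 8 (Cpa1, Prss2, Pnlip, Cel and Ptf1a) were at 0 in every sample and the sum was at most 1.06 CPM. The 6 fibroblast markers, none of them at 0 throughout, summed to 1.66 to 22.6 CPM in controls and 1.79 to 19.5 CPM after epinephrine. Of these, 3 were tested, 2 were higher after epinephrine and none passed. Col1a1 was at a log2 fold change of 2.11 (SE 1.02) and Col1a2 at -1.22 (SE 0.72). Pdgfra was at 1.02 (SE 0.41, FDR 0.25), with an unadjusted edgeR p of 0.035. Its groups did not overlap, at levels of only 0.229 to 0.992 CPM. Without control 1 only Col1a1 rose (FDR 0.000676), beside 12.1% of all genes. Under DESeq2 1 marker fell, beside 2.04%. The part of these markers in the results was not tested.

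Chronic epinephrine was accompanied by higher transcript levels across nearly the whole group. Of the 10 genes, 7 rose at a false discovery rate (FDR) below 0.05 and none fell, by edgeR's quasi-likelihood test, with p-values adjusted by Benjamini-Hochberg over the whole set of tested genes. Those that rose were Pdia6, Ero1l, P4hb, Pdia4, Erp29, Pdia3 and Erp44. Over all genes tested, 2.02% rose (257 of 12747) and 0.612% fell (78 of 12747). The median log2 fold change of the 10 genes was 0.48, beside -0.002 over all genes. None of the 10 reached a 2-fold change. In bulk RNA a change in the level per cell and a change in the mix of cells cannot be told apart.

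**Figure D1:**
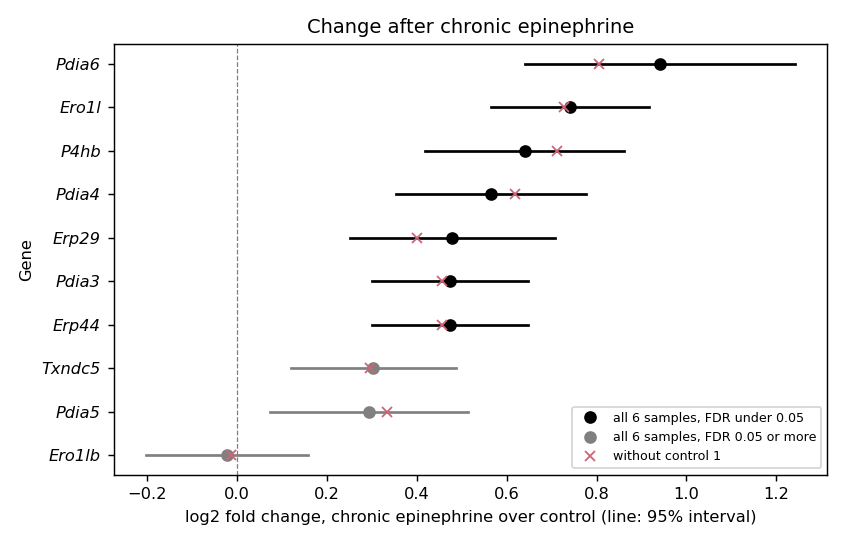
log2 fold change (chronic epinephrine over control, horizontal axis) of each gene, fitted on all 6 samples, with its 95% interval. Black points passed FDR below 0.05, grey points did not, and crosses are the fit without control 1. Values run from 0.94 for Pdia6 to -0.02 for Ero1lb, and every interval except that of Ero1lb lies above 0.

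For 9 of the 10 genes the lowest epinephrine sample exceeded the highest control. The same separation was found in 14.3% of all genes tested (1829 of 12747). With 3 samples against 3, an exact two-sided permutation test cannot give a p below 0.1, which is the value each of these 9 genes had. Ero1lb was the gene whose groups overlapped.

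**Figure D2:**
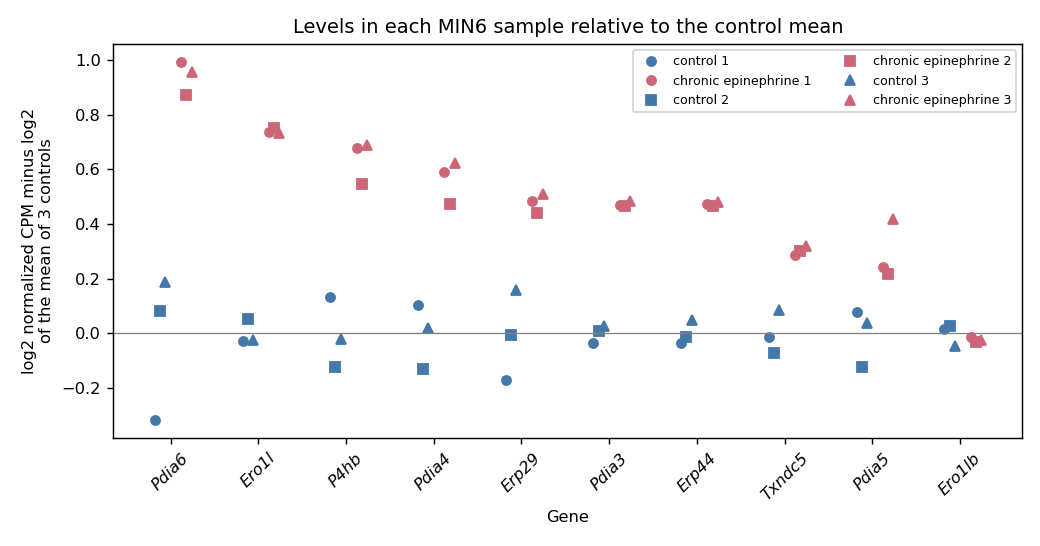
Level of each gene in each sample, as log2 normalised CPM minus log2 of the mean of the 3 controls (vertical axis). Blue symbols are controls, red symbols are chronic epinephrine samples, and the symbol shape gives the replicate number. The groups are separate for every gene except Ero1lb, and control 1 is the lowest sample for Pdia6 and the highest control for P4hb.

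How many of these genes passed the threshold depended on single libraries. Without control 1, 9 of the 10 rose, but so did 12.1% of all genes tested (1572 of 12966). Without control 2 only Pdia6 and Ero1l passed, beside 0.683% of all genes tested that rose. Without control 3 Pdia6, Ero1l, Erp29 and Erp44 passed, beside 1.17%. Without any one of the epinephrine samples only Ero1l passed, beside 0.341%, 0.357% and 0.555% without epinephrine 1, 2 and 3. Each of these fits has fewer samples, and the fold changes themselves moved little, with the median of the 10 genes between 0.46 and 0.53. DESeq2's Wald test called 8 of the 10, adding Txndc5, beside 3.18% of all genes tested that rose (447 of 14047).

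**Figure D3:**
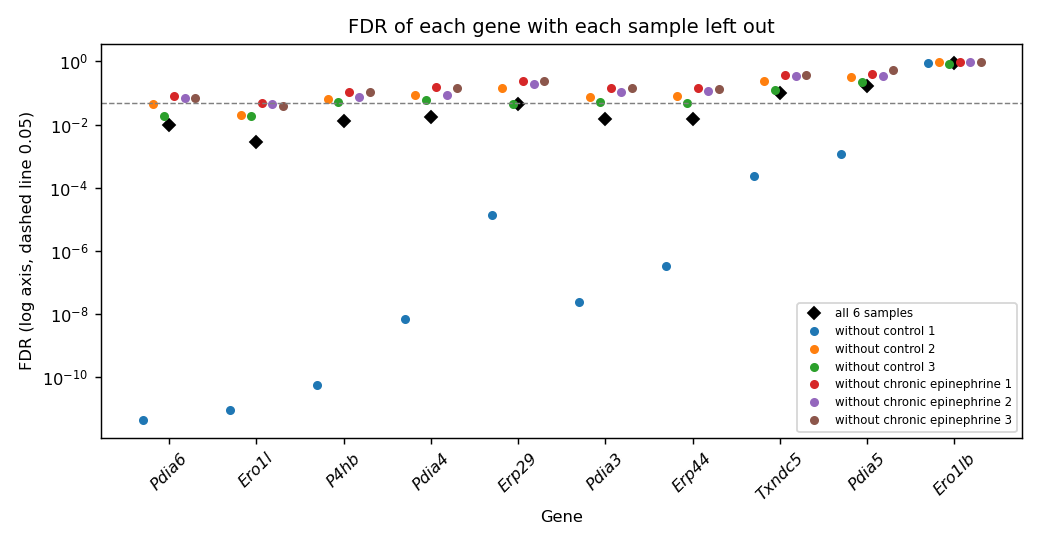
FDR of each gene (log axis) with all 6 samples (black diamonds) and with each sample left out in turn (coloured points), with the 0.05 threshold as a dashed line. Ero1l alone lies below the line in every fit, and the fits without control 1 give the lowest FDR for 9 of the genes.

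Of the oxidases, Ero1l rose and Ero1lb did not pass the test. Ero1l (ENSMUSG00000021831, chr14:45283087-45318771) was at 371.7, 392.7 and 372.2 CPM in the controls and at 631.4, 638.2 and 629.3 CPM after epinephrine. The groups were far apart and the spread within each was small. Ero1l rose by 1.67-fold (95% interval 1.48 to 1.89; log2 fold change 0.74, SE 0.077, FDR 0.00289), and the call held in all 6 fits that left out a sample, the highest FDR being 0.0466 without epinephrine 1.

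Ero1lb (ENSMUSG00000057069, chr13:12565874-12611396), the oxidase associated with β-cells, was at 3712, 3741 and 3556 CPM in the controls and at 3640, 3589 and 3611 CPM after epinephrine. All 3 epinephrine values fell within the range of the controls. Its fold change was 0.985 (95% interval 0.869 to 1.12; log2 fold change -0.02, SE 0.079, FDR 0.913), so a rise of the size seen for Ero1l lies outside the interval. Its level was nevertheless the highest of the group, and per transcript length it ranked 47 among all genes, at a mean of 921 FPKM (fragments normalised to transcript length and library size) in controls and 908 FPKM after epinephrine.

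The ratio between these oxidases was lower in every epinephrine sample. In FPKM, which corrects for length, Ero1lb exceeded Ero1l by 10.2-, 10.4- and 10.6-fold in the controls and by 5.84-, 6.32- and 6.27-fold after epinephrine. The groups did not overlap, and the ratio differed by -0.76 on the log2 scale (exact permutation p = 0.1, the smallest possible; 0.167 after adjustment over 10 ratios). Leaving out any sample kept this difference between -0.78 and -0.72. As a share of the summed FPKM of these oxidases, Ero1l made up 8.97%, 8.78% and 8.63% in the controls and 14.6%, 13.7% and 13.8% after epinephrine. The sum of both was 971.6 to 1038 FPKM in controls and 1041 to 1069 FPKM after epinephrine.

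**Figure D4:**
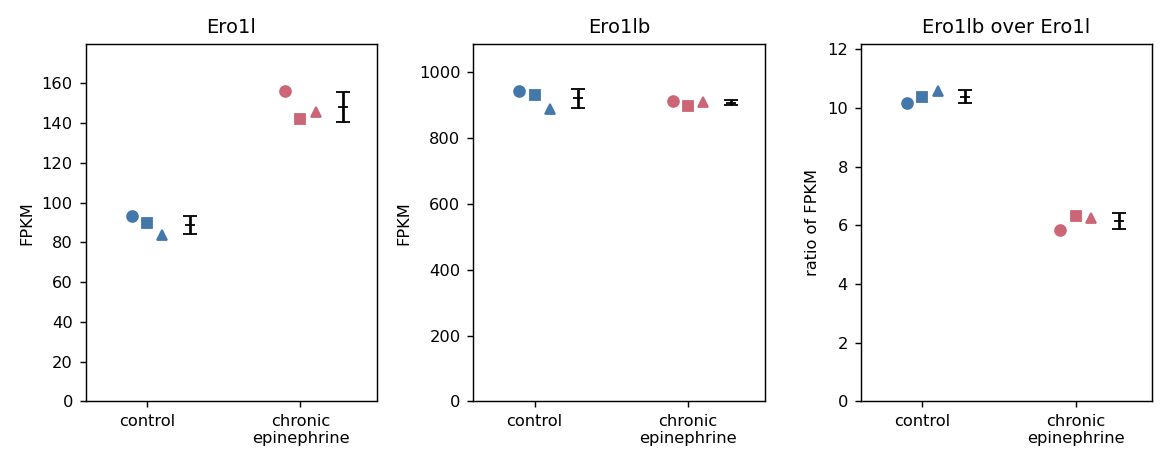
FPKM of Ero1l (left), FPKM of Ero1lb (middle) and their ratio within each sample (right), all axes starting at 0, with blue controls and red chronic epinephrine samples and the mean ± SD (n = 3) beside them. Ero1l is higher in all 3 epinephrine samples, Ero1lb overlaps, and the ratio is 10.2 to 10.6 in controls against 5.84 to 6.32.

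P4hb (ENSMUSG00000025130, chr11:120560298-120573253) encodes PDI itself, the founding member of the family, which also serves as the β subunit of prolyl 4-hydroxylase and the small subunit of the microsomal triglyceride transfer protein. It was at 1515, 1270 and 1361 CPM in the controls and at 2214, 2017 and 2229 CPM after epinephrine. Every epinephrine sample was above every control, and control 1 was the highest of the controls. P4hb rose by 1.56-fold (log2 fold change 0.64, SE 0.097, 95% interval 0.42 to 0.86, FDR 0.0129). The call was kept without control 1 (FDR 5.68e-11) and lost when any other sample was left out, with the FDR then between 0.0514 and 0.111.

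Pdia6 (ENSMUSG00000020571, chr12:17266545-17284770), which encodes P5, an isomerase that associates with the chaperone BiP, changed most. It was at 497, 655.9 and 704.7 CPM in the controls and at 1233, 1133 and 1202 CPM after epinephrine. Control 1 was the lowest sample and the controls were more scattered (SD 109 CPM) than the epinephrine samples (SD 51.5 CPM). Pdia6 rose by 1.92-fold (95% interval 1.56 to 2.36; log2 fold change 0.94, SE 0.13, FDR 0.00946). Without control 1 its log2 fold change was 0.81 (FDR 4.43e-12), the smallest of the 6 such fits, and the call was lost without epinephrine 1, 2 or 3 (FDR 0.083, 0.0706 and 0.0682). Its promoter window held an ERSE match, as did that of Ero1lb, and whether the element has a part in the change was not tested.

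Pdia3 (ENSMUSG00000027248, chr2:121413775-121438687) encodes ERp57, which works with the lectin chaperones calnexin and calreticulin on glycoproteins. Its controls were at 807.5, 832.3 and 841.8 CPM and its epinephrine samples at 1147, 1144 and 1157 CPM. Both groups were tight, and they did not overlap. Pdia3 rose by 1.39-fold (log2 fold change 0.47, SE 0.076, 95% interval 0.30 to 0.65, FDR 0.0154). The call was kept without control 1 (FDR 2.39e-08) and otherwise lost, at an FDR of 0.0517 to 0.146.

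Pdia4 (ENSMUSG00000025823, chr6:47796141-47813430) encodes ERp72, an isomerase with more than the usual number of active thioredoxin-like domains. It was expressed at 134.8, 114.8 and 127.2 CPM in the controls and at 189, 174.6 and 193.7 CPM after epinephrine. Control 2 and epinephrine 2 were the lowest samples of their groups, and the groups did not overlap. Pdia4 rose by 1.48-fold (log2 fold change 0.56, SE 0.093, 95% interval 0.35 to 0.78, FDR 0.0177). As for Pdia3, the call was kept without control 1 (FDR 6.89e-09) and lost without any other sample (FDR 0.0622 to 0.154).

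Erp44 and Erp29 are members that do not act mainly as oxidising isomerases. Erp44 (ENSMUSG00000028343, chr4:48193323-48279558) retrieves Ero1 oxidases and other proteins without an ER retention signal from the early secretory pathway. It was at 94.1, 95.6 and 99.8 CPM in the controls and at 134.1, 133.3 and 134.7 CPM after epinephrine, with no overlap. Erp44 rose by 1.39-fold (log2 fold change 0.47, SE 0.076, 95% interval 0.30 to 0.65, FDR 0.0154). The call was kept without control 1 (FDR 3.30e-07) and without control 3 (FDR 0.0482), and lost without control 2 (FDR 0.0797) or any epinephrine sample (FDR 0.113 to 0.148).

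Erp29 (ENSMUSG00000029616, chr5:121428590-121452506) encodes a chaperone with a thioredoxin fold that lacks the redox-active cysteine pair. It was at 63.8, 71.6 and 80.3 CPM in the controls and at 100.7, 97.5 and 102.5 CPM after epinephrine. The controls were spread more widely than the epinephrine samples, with control 1 lowest. Erp29 rose by 1.39-fold (log2 fold change 0.48, SE 0.099, 95% interval 0.25 to 0.71, FDR 0.0448), close to the threshold. The call was kept without control 1 (FDR 1.32e-05) and without control 3 (FDR 0.0453), lost without any other sample (FDR 0.145 to 0.245), and lost under upper quartile scaling (FDR 0.0575). This gene is also the least certain in its counting: 24.3% of its 50-base windows in the GENCODE M21 transcripts occur in other genes, and its exons overlap those of Naa25 and Tmem116 on the opposite strand. Whether counting used strand is not given in the sources used here, so reads from such overlapping partners cannot be told apart. Fewer windows were shared by Ero1lb (9.39%), Txndc5 (8.85%) and Ero1l (1.69%), and at most 0.0314% by the others. Exons on the opposite strand also overlap Txndc5 (Bmp6 and Gm31834), Pdia3 (Catsper2) and Pdia6 (Atp6v1c2), and Mir704 overlaps Pdia4 on its own strand.

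Txndc5 (ENSMUSG00000038991, chr13:38500079-38528824) encodes ERp46, an isomerase with fast disulfide-introducing activity. It was at 136.1, 130.7 and 145.7 CPM in the controls and at 167.5, 169.5 and 171.8 CPM after epinephrine. The groups were separate, but the difference did not pass the test (fold change 1.23; log2 fold change 0.30, SE 0.080, 95% interval 0.12 to 0.49, FDR 0.0974). It passed under DESeq2 (FDR 0.0137) and without control 1 (FDR 0.000237).

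Pdia5 (ENSMUSG00000022844, chr16:35397312-35490873) encodes PDIR, an isomerase known to act on the stress sensor ATF6. It was the lowest-expressed of the group, at 47.9, 41.7 and 46.6 CPM in the controls and 53.7, 52.8 and 60.6 CPM after epinephrine. The groups did not overlap, yet the difference did not pass the test either (fold change 1.23; log2 fold change 0.29, SE 0.096, 95% interval 0.07 to 0.51, FDR 0.171). It passed without control 1 (FDR 0.00115).

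Per transcript length the genes covered a wide range. Ero1lb, P4hb, Pdia6 and Pdia3 ranked 47, 74, 110 and 133 among all genes by FPKM over the 6 samples, and Pdia5 ranked 2747. In controls P4hb averaged 488 FPKM and Pdia3 301 FPKM, above Pdia6 at 292 FPKM, whereas after epinephrine Pdia6 (552 FPKM) stood above Pdia3 (411 FPKM) and below P4hb (745 FPKM). In controls Pdia3 (300 to 302 FPKM) lay within the spread of Pdia6 (239.6, 307.9 and 328.6 FPKM), so that this pair was not in a clear order before epinephrine.

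Summed over the 8 genes other than the oxidases, Erp44 and Erp29 included, FPKM was 1305, 1260 and 1332 in the controls and 2052, 1907 and 2046 after epinephrine. The controls lay close together in this sum although control 1 differed in its makeup. P4hb made up 41.7% of the sum in control 1 and 35.3% and 35.6% in controls 2 and 3, while Pdia6 made up 18.4% in control 1 and 24.4% and 24.7% in the others. After epinephrine Pdia6 made up at least 27.3%, above every control, and Pdia3 20.1% to 21.3%, below every control (22.7% to 23.9%). Set against the oxidases, the FPKM of these 8 genes was 1.26, 1.23 and 1.37 times that of the oxidases in the controls and 1.92, 1.83 and 1.94 times after epinephrine.

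**Figure D5:**
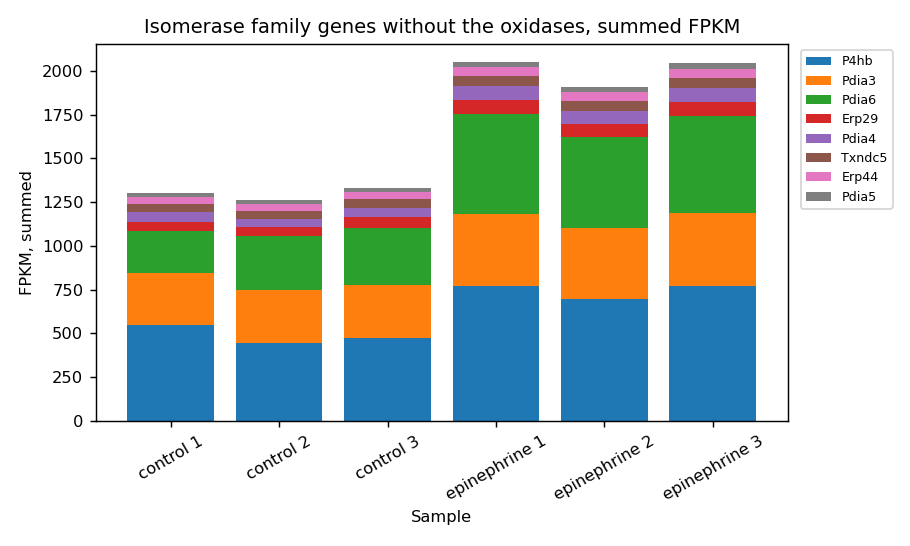
Summed FPKM of the 8 genes other than the oxidases, Erp44 and Erp29 included (vertical axis, from 0) in each sample, with each gene as a coloured segment. The 3 control bars reach 1260 to 1332 FPKM and the 3 epinephrine bars 1907 to 2052 FPKM, and P4hb, Pdia6 and Pdia3 fill most of each bar.

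Ratios to P4hb within each sample do not depend on scaling between samples. Pdia6 stood at 0.44, 0.692 and 0.694 of P4hb in the controls and 0.746, 0.753 and 0.723 after epinephrine. The difference of 0.31 on the log2 scale rested largely on control 1, and was 0.10 without it. Relative to P4hb the log2 difference was -0.35 for Pdia5, -0.33 for Txndc5 and -0.08 for Pdia4. In these 4 ratios and in that of Ero1lb (-0.64) the groups did not overlap (exact permutation p = 0.1 each, 0.167 after adjustment over the 10 ratios). The ratios of Pdia3 (-0.17), Erp44 (-0.17), Ero1l (0.12) and Erp29 (-0.11) to P4hb overlapped between groups. Without control 1 those of Pdia3, Erp44 and Erp29 were each at -0.25 and did not overlap, and that of Ero1l was at 0.07. Without control 3 that of Erp29 was at -0.01. The design could not bring any of these ratios below 0.1, so none passed a test.

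Of 14 other genes of the protein disulfide isomerase family, 9 were tested and none passed FDR below 0.05 with edgeR or DESeq2, while 2 had an unadjusted p below 0.05. With 2.02% of all genes rising, 0 of 9 is near the background. Their median log2 fold change was 0.04. The smallest p-values belonged to Txndc11 (log2 fold change 0.29, SE 0.11, FDR 0.224) and Dnajc10, the reductase ERdj5 (log2 fold change 0.28, SE 0.11, FDR 0.237). Both passed without control 1, beside 12.1% of all genes. In that fit Txndc11 had a larger log2 fold change (0.40) and Dnajc10 a smaller one (0.18). Family members typical of other tissues (Pdilt, Erp27 and Agr3) were at 0 in every sample, and Pdia2 and Agr2 were too low to be tested.

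Among 11 other ER thiol oxidases, peroxidases and reductases, 10 were tested, 8 were higher after epinephrine, 1 rose and none fell, beside 2.02% and 0.612% of all genes. This was Creld2, an ER-stress-inducible gene with isomerase-like activity, at 46.0, 49.9 and 56.7 CPM in the controls and 95.2, 88.8 and 95.3 CPM after epinephrine. Its groups were far apart (log2 fold change 0.87, SE 0.099, FDR 0.00434). The call was lost only without epinephrine 1 (FDR 0.0552), and without control 1 the list held 5 genes that rose, beside 12.1% of all genes. The median log2 fold change of the list was 0.31.

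Among 12 partners of the isomerases and oxidases, 11 were tested and 3 rose (2.02% of all genes did), with a median log2 fold change of 0.29. These were Mcfd2 (0.55, SE 0.089, FDR 0.0166) and Lman1 (0.39, SE 0.075, FDR 0.0359), which together form a cargo receptor from ER to Golgi, and P4ha2 (0.67, SE 0.13, FDR 0.0356), a catalytic prolyl 4-hydroxylase subunit that binds P4hb. Lman1 and P4ha2 passed in 1 of the 6 fits that left out a sample, the fit without control 1, and Mcfd2 also passed without control 2. P4ha2 was also lost when scaled by library size alone (FDR 0.0567) and under limma on FPKM (FDR 0.0823 with either pseudocount). Without control 1, 8 partners rose and 1 fell, beside 12.1% and 9.46% of all genes, and DESeq2 called 7, all higher, beside 3.18%. Calr, the calreticulin that recruits Pdia3, did not pass (log2 fold change 0.59, SE 0.15, FDR 0.0798), although its groups did not overlap. It passed under DESeq2 (FDR 0.00836) and without control 1 (log2 fold change 0.79, FDR 2.94e-12). It was named after its values were seen.

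Among 8 genes of disulfide-bonded granule proteins, 1 rose and 1 fell, beside 2.02% and 0.612% of all genes tested. Chgb, which encodes chromogranin B, rose (log2 fold change 0.47, SE 0.089, FDR 0.0319), and Ins1, which encodes preproinsulin 1, fell. Ins1 was at 2815, 2887 and 2932 CPM in the controls and 1983, 2091 and 2046 CPM after epinephrine (log2 fold change -0.50, SE 0.079, FDR 0.0152). Both calls were kept without control 1 and lost when any other sample was left out (FDR 0.0982 to 0.199 for Chgb, 0.0524 to 0.154 for Ins1). Both were also lost under limma on FPKM (FDR 0.116 and 0.120 for Chgb, 0.0865 and 0.0931 for Ins1). With the replicate number as a block, neither passed (FDR 0.0977 for Chgb and 0.0686 for Ins1). Ins2, named after its values were seen, had overlapping groups (log2 fold change 0.01, SE 0.15, FDR 0.974). It was at 24524 CPM in control 1 and 34355 and 37104 CPM in controls 2 and 3, and without control 1 it fell (log2 fold change -0.15, FDR 0.0205). In that fit 3 of the 8 rose and 2 fell, beside 12.1% and 9.46% of all genes. Those gained as higher were Cpe, a prohormone-processing carboxypeptidase (log2 fold change 0.32, FDR 2.85e-05), and Chga, which encodes chromogranin A (0.15, FDR 0.0186). Cpe also passed under DESeq2 (FDR 0.00518), and Chga was at -0.06 in the fit of all samples (FDR 0.876). Both were named after their values were seen. Ins1 and Ins2 are close paralogs between which counting could split reads. None of the 6 genes for the ERSE and UPRE factors passed in edgeR or DESeq2, and 1 had an unadjusted p below 0.05. The lowest p-values were those of Xbp1 (log2 fold change 0.24, SE 0.090, FDR 0.216) and Nfyc (log2 fold change 0.19, SE 0.11, FDR 0.437). The log2 fold change of Nfyc was 0.097 without control 1 and 0.28 without control 3. Without control 1, 3 of the 6 rose, beside 12.1% of all genes. These were Atf6 (FDR 0.00597), Atf6b (FDR 1.47e-05) and Xbp1 (FDR 0.0122), of which Atf6 and Atf6b were named after their values were seen.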

How the data were processed

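RNA was sequenced on an Illumina NovaSeq instrument from 3 control and 3 chronic epinephrine samples of MIN6. The deposited table, made by the authors, holds expected counts per gene, of which 8.34% were not whole, and FPKM values that the authors normalised to transcript length and library size. The submitters' processing notes name GRCm38. The aligner, counter, annotation and strand setting are not given in the sources used here. All 6 sample columns were used.

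Expected counts were rounded and tested with edgeR 4.0.16 (R 4.3.3): TMM normalisation, filterByExpr, quasi-likelihood test of chronic epinephrine against control, and Benjamini-Hochberg adjustment over the 12747 genes tested. CPM are normalised by TMM. Within-sample FPKM ratios were compared by an exact two-sided permutation test. SE is the log2 fold change divided by the square root of F. Library totals were 15017065 to 18127171, at which 3 counts equal 0.166 to 0.200 CPM. Alternatives were DESeq2 1.42.0, limma 3.58.1 on log2 FPKM, other scalings and filters, a replicate block, and leaving out each sample. The edgeR script was run on simulated data in which no sample stood apart, so that run checks only the code and not the calls made here.

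All 10 genes are named. From each other list, up to 4 genes past the threshold were named in order of p, or otherwise the 2 with the smallest p. The genes and lists were chosen with earlier results of these data known. Positions are from GENCODE M21 (GRCm38) and promoters from RefSeq (GRCm38.p6), searched on both strands.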

Additional observations from a re-analysis of the deposited data

How the results depend on the processing

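No value of the 10 genes changed sign under any alternative, and of 150 recomputed values 117 stayed on the same side of the threshold, 30 lost the call and 3 gained it. The number of the 10 genes called was 6 to 8 under the other scalings, filters, DESeq2 and limma, and 1 to 9 when samples were left out in turn, where fewer samples remain. Among all genes, 335 passed in the fit of all samples, 734 with DESeq2, and 47 to 2798 with a sample left out, the highest without control 1. Partner genes called were 3, against 7 with DESeq2 and 0 to 9 with a sample left out. The other disulfide isomerase genes called were 0 to 2 and the other thiol oxidases, peroxidases and reductases 0 to 5 with a sample left out. Apart from the construction of these fits, the cause of such shifts was not tested.

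Replicate numbers did not pair the samples: across genes, same-numbered samples deviated from their groups with correlations of 0.050, 0.068 and -0.049, and not every sample correlated best with its own number. With the replicate number as a block, 4 of the 10 genes (P4hb, Pdia4, Pdia6 and Ero1l), 1 partner gene (P4ha2) and 178 genes in all passed. Pdia3, Erp44 and Erp29 then lost the call (FDR 0.0733, 0.0704 and 0.0932). So did Mcfd2 (FDR 0.0702), Lman1 (FDR 0.122), Ins1 and Chgb. None of the 10 genes had under 730 counts in a sample. An exact permutation test of 3 against 3 cannot give a p below 0.1.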

Other observations

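Genes sharing the ERSE with Pdia6 and Ero1lb were listed after the results were seen, and are given as a description without a test. The list includes Pdia6, Ero1lb and Creld2, all described above, so the share below counts their results again. Of 37 genes with an ERSE in a promoter window, 18 were tested, 16 were higher after epinephrine, and 6 rose (33.3%, beside 2.02% of all those in the fit). Their median log2 fold change was 0.25. None fell. The 6 were Derl3, an ER-associated degradation factor (log2 fold change 1.22, SE 0.19), Pdia6 (0.94, SE 0.13), Creld2 (0.87, SE 0.099), Hspa5, which encodes BiP (0.62, SE 0.081), Hsp90b1, which encodes GRP94 (0.53, SE 0.11) and Dnajc3, a BiP co-chaperone (0.41, SE 0.078). Ero1lb, at -0.02, was among the 12 that did not pass, as were Calr at 0.59 and Canx at 0.24, which both passed under DESeq2 (FDR 0.00836 and 0.0464). Without control 1, 10 of the 18 rose and 1 fell, beside 12.1% and 9.46% of all genes, and Calr, Canx, Syvn1 and Alg12 were among those gained. DESeq2 called 8, all higher, beside 3.18%.

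Of 193 genes with the UPRE in a window, 103 were tested, 5 rose (4.85%, beside 2.02% of all genes tested) and none fell (0.612% of all genes did), and the median log2 fold change was 0.07. They were Kdelr3, a receptor that returns proteins to the ER (1.19, SE 0.15), Ppargc1a (0.99, SE 0.14), Isg20 (0.90, SE 0.14), Sec16b, of the ER exit sites (0.90, SE 0.099) and Lrrc59 (0.49, SE 0.090). Without control 1, 29 of the 103 rose and 11 fell, beside 12.1% and 9.46% of all genes tested. DESeq2 called 7 higher and 2 lower, beside 3.18% and 2.04%. Txndc5, at 0.30 (FDR 0.0974), was among those that did not pass in edgeR with all samples, and it was called higher under DESeq2 (FDR 0.0137).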
